A study of Mus musculus with 8 samples.

Results

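Runx1, Runx2, Runx3 and Cbfb, the genes of the core binding factors, were followed in activated muscle stem cells (ASCs) of wild-type and mfn2-/- mice. Mfn2 encodes mitofusin 2, a protein of mitochondrial fusion. The 4 genes were chosen by symbol, and all 4 have a row among the 18877 rows of the table. The samples were 4 wild-type and 4 mfn2-/- libraries of sorted ASCs from tibialis anterior muscle of adult mice. All animals carried a mitochondrial Dendra2 reporter switched on by Pax7-Cre (ERT2), and the mfn2-/- animals carried a floxed Mfn2 allele as well. Tamoxifen was given at 75 mg/kg on each of 5 days, and 50 µL of 1.2% BaCl2 was injected 2 days after the last dose to injure the muscle. Cells that were CD34-, Dendra2+ and DAPI- were collected 2 days after injury. Deletion therefore depended on Cre in cells with an active Pax7 promoter. Whether each library came from a separate animal is not stated, so the p-values measure the spread between these samples.

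RUNX1, RUNX2 and RUNX3 are transcription factors that bind the same short DNA element through their Runt domain. Each of them pairs with CBFB, which does not touch DNA itself but strengthens the binding and protects its partner from degradation. RUNX1 is best known from blood cell formation, RUNX2 from bone and cartilage, and RUNX3 from T cells and sensory neurons. In skeletal muscle, RUNX1 is low in healthy innervated fibers, is induced by denervation and injury, and is needed by proliferating myoblasts during regeneration.

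The libraries held 1880464 to 7508215 reads assigned to genes, with wild-type replicate 1 and mfn2-/- replicate 4 the shallowest. The targeted gene, Mfn2, measured 202 to 245 normalized reads in wild-type and 104 to 172 in mfn2-/- libraries, without overlap, but was not called (limma adjusted p 0.0848). Y-linked genes had reads in 4 libraries (replicates 3 and 4 of the wild-type, replicates 1 and 2 of the mfn2-/- group) and 0 in the other 4. Both groups are thus split evenly, and values within each kind of library are given beside the pooled ones. Normalized reads are the deposited unit, and changes are mfn2-/- minus wild-type differences of log2(normalized reads + 1). Fitted with limma over 11754 genes with a mean of at least 10, 10.4% of genes passed an adjusted p of 0.05, 3.99% higher and 6.36% lower in mfn2-/- ASCs. The 2 groups did not overlap for 19.5% of genes tested.

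Runx1 lies on the minus strand of chromosome 16 (chr16:92601466-92826149, GENCODE M21, GRCm38) and has a distal and a proximal start. Runx2 is on the minus strand of chromosome 17 (chr17:44495987-44814797), Runx3 on the plus strand of chromosome 4 (chr4:135120652-135177990) and Cbfb on the plus strand of chromosome 8 (chr8:105170674-105217989). The 250 bases before a start are shown for both starts of Runx1, the member that changed, and for the starts of Runx2 and Runx3 that hold a RUNX element. Sequences are those of RefSeq (GRCm38.p6), written 5′ to 3′ on the strand of the gene. Capitals mark the RUNX hexamer TGTGGT or its reverse complement ACCACA in the Runx2 and Runx3 lines. In the Runx1 lines capitals mark ACGTG or CACGT, the core letters of the hypoxia response element, which was searched because the study concerns HIF1A.
Runx1 distal start, chr16:92826075-92826324, minus strand: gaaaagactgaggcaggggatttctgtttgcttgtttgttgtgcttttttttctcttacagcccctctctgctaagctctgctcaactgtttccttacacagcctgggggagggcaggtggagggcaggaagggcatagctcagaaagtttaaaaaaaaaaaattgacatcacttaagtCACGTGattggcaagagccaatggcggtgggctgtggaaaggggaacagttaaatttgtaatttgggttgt
Runx1 proximal start, chr16:92697330-92697579, minus strand: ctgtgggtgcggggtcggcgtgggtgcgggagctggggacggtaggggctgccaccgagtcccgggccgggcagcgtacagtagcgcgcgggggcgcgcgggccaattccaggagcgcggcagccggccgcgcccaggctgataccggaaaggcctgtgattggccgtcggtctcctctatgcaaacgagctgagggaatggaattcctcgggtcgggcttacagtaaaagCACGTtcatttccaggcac
Runx2 start, chr17:44814628-44814877, minus strand: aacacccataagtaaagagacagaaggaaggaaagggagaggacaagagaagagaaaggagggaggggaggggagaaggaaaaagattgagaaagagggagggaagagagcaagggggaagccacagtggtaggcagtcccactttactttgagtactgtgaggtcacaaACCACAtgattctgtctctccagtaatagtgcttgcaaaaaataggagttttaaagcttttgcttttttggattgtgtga
Runx3 distal start, chr4:135120395-135120644, plus strand: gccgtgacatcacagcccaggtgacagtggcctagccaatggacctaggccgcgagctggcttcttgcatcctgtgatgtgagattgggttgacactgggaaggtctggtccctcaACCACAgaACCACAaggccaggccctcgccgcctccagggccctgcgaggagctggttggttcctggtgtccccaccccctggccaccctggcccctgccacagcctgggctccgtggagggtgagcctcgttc

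The RUNX hexamer stood 80 bases before the Runx2 start, counted to its first base (-80), and at -134 and -126 before the distal Runx3 start. It was in neither Runx1 window, in the Cbfb window or in the proximal Runx3 window. On either strand it occurred in 14.0% of 32851 promoter windows of the same length. The hypoxia core was in both Runx1 windows. In the distal one a single palindrome, CACGTG, gave 2 overlapping matches, and 16.6% of all windows held the core. The E-box CAGCTG, favored by MyoD and found in 13.0% of windows, and the AP-1 element TGANTCA, found in 6.75%, were in none of the 6 windows of the 4 genes. A match describes letters and not a bound site, and the values per gene do not tell which start was used.

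**Figure D1:**
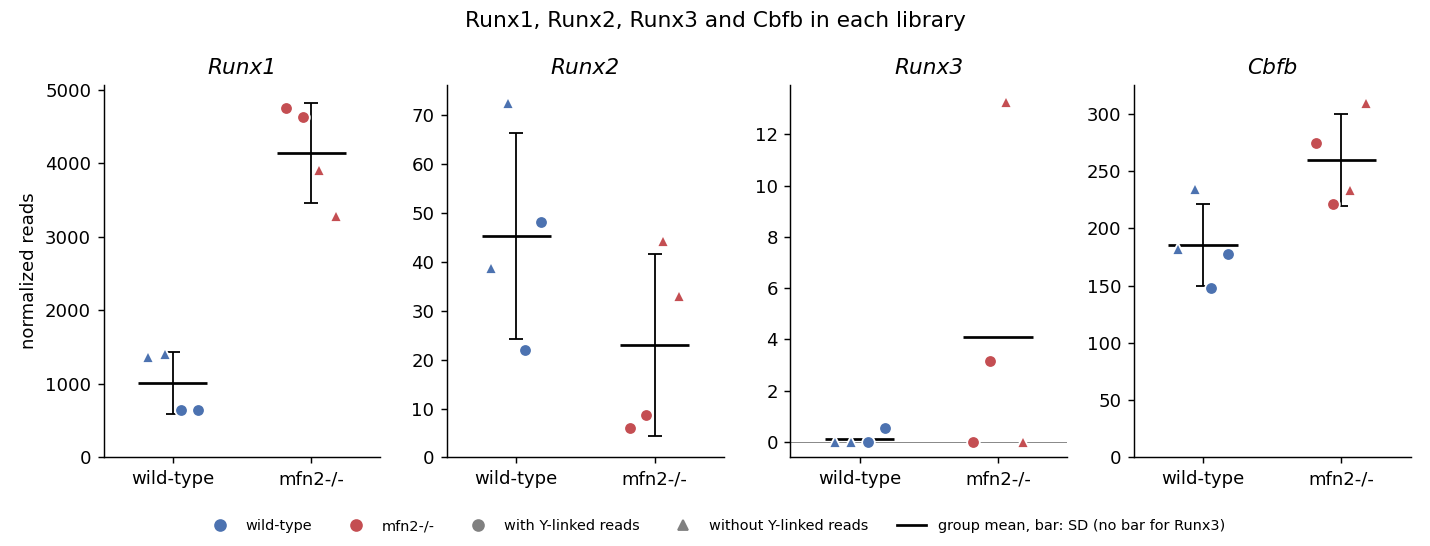
Normalized reads of Runx1, Runx2, Runx3 and Cbfb on the y axes for wild-type (blue) and mfn2-/- (red) libraries, with 1 point per library, the group mean as a line and the SD as a bar (none for Runx3). Circles are libraries with Y-linked reads and triangles are those without. All 4 mfn2-/- libraries lie above all 4 wild-type libraries for Runx1, at 3282 or more against 1400 or less, while the groups overlap for the other 3 genes.

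Runx1 was 4.09-fold higher in mfn2-/- than in wild-type ASCs. The wild-type libraries gave 1360, 1400, 649 and 643 normalized reads in replicates 1 to 4. The mfn2-/- libraries gave 4744, 4627, 3905 and 3282. The lowest mfn2-/- library was thus well above the highest wild-type library, and the means were 1013 ± 424 and 4140 ± 682 (SD, n = 4 each). On the log2 scale Runx1 rose by 2.12 ± 0.27 (SE), with a limma adjusted p of 0.000339, and the 95% interval ran from 2.87-fold to 6.53-fold. The two-sided exact permutation test gave p = 0.0286, the smallest that 4 against 4 libraries allow. Among the 469 genes called higher, Runx1 was the 41st by log2 change and the 29th by normalized reads in mfn2-/- ASCs.

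The wild-type values of Runx1 fell into 2 levels that followed the kind of library. Wild-type libraries without Y-linked reads averaged 1380 normalized reads and those with such reads 646. In mfn2-/- cells the order was the other way round, with 3593 without and 4686 with Y-linked reads. Runx1 was therefore 7.25-fold higher in mfn2-/- ASCs among libraries with Y-linked reads and 2.60-fold higher among those without, log2 changes of 2.86 and 1.37 from 2 libraries per group each. The difference between these changes was 1.48 (SE 0.20, limma interaction adjusted p 0.00590), a call that 1.47% of genes (173) reached. That number of genes ran from 31 without mfn2-/- replicate 1 to 1347 without mfn2-/- replicate 3, with 38 without mfn2-/- replicate 2, 57 without wild-type replicate 3 or 4, 76 and 114 without wild-type replicate 1 and 2, and 0 without the intensity trend. The Runx1 call was lost without mfn2-/- replicate 1 (adjusted p 0.0800) or 2 (0.0640), and without the intensity trend (0.355). Sex of the animals and any other property of these library pairs cannot be told apart.

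Runx2, the bone and cartilage member, was weak in ASCs. It measured 38.7, 72.6, 22.0 and 48.1 normalized reads in wild-type replicates 1 to 4, or 17 to 90 reads. In mfn2-/- replicates 1 to 4 it measured 6.0, 8.69, 44.2 and 33.0, or 9 to 60 reads. The mfn2-/- replicates 1 and 2 lay below every wild-type library, but replicates 3 and 4 lay inside the wild-type range. The means of 45.3 ± 21.1 and 23.0 ± 18.7 differed by less than the spread allows to call (log2 change -1.25, SE 0.92, limma adjusted p 0.438, exact permutation p = 0.171). The 95% interval ran from 0.106 to 1.67 times the wild-type level. A fall of several fold and a modest rise are both inside it. The change was -2.03 among libraries with Y-linked reads and -0.46 among those without, and these were not called different (interaction adjusted p 0.711).

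Runx3 was at the limit of detection and did not pass the filter. Wild-type replicates 1 to 3 had 0 reads and replicate 4 had 1 read. In mfn2-/- cells replicate 2 had 4 reads, replicate 3 had 18 and replicates 1 and 4 had 0. The 22 reads of the mutant group thus came from 2 libraries, and the groups overlapped at 0. The exact permutation test gave p = 0.429.

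Cbfb, the shared partner subunit, was 1.40-fold higher by mean in mfn2-/- ASCs and did not pass the test. Its values were 182, 234, 148 and 178 normalized reads in wild-type replicates 1 to 4 and 275, 221, 234 and 310 in the mfn2-/- replicates. The groups overlapped, since wild-type replicate 2 at 234 lay above mfn2-/- replicate 2 at 221. The means were 186 ± 36.0 and 260 ± 40.4, which is 0.49 ± 0.27 (SE) on the log2 scale (limma adjusted p 0.293, exact permutation p = 0.0857). The 95% interval ran from 0.934-fold to 2.11-fold. Both kinds of library gave a positive value, 0.60 with and 0.38 without Y-linked reads. Of the 3 genes tested, 1 was called, Runx1, against 10.4% of all genes.

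Levels between the genes were compared as normalized reads per kb of annotated exons (12.025 kb for Runx1, 8.837 for Runx2, 5.003 for Runx3 and 3.48 for Cbfb in GENCODE M21). On this scale the order was Runx1, Cbfb, Runx2, Runx3 by mean in both groups. In wild-type ASCs Runx1 had 84.3 ± 35.3 and Cbfb 53.3 ± 10.3 per kb. Runx1 and Cbfb overlapped between libraries, but within each library Runx1 was the higher, by 1.05 to 2.16 times. These ratios depend on the lengths used, which span the exons of all annotated transcripts and not those expressed here. In mfn2-/- ASCs Runx1 stood at 344 ± 56.7 and Cbfb at 74.7 ± 11.6 per kb, and the ratio within a library was 3.07 to 6.05. Runx2 had 5.13 ± 2.39 per kb in wild-type and 2.60 ± 2.11 in mfn2-/- cells, far under Cbfb in every library. Runx3 reached at most 0.107 per kb in wild-type cells, below every Runx2 value there, and 2.65 in mfn2-/- cells, where the ranges of Runx2 and Runx3 overlapped.

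Of the RUNX level per kb summed over the 3 genes, Runx1 made up 90.6 to 96.3% in the wild-type and 97.7 to 99.8% in the mfn2-/- libraries. Runx2 made up 3.72 to 9.22% and 0.172 to 1.51%. The share of Runx1 was thus higher in every mfn2-/- library than in any wild-type library.

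Runx1 was also set against its relatives within each library, where size factors matter little except for the weak Runx2. The log2 ratio of Runx1 to Runx2, from normalized reads + 1, was 4.47 ± 0.62 in wild-type ASCs and 7.83 ± 1.54 in the mfn2-/- group, a difference of 3.36, or 2.96 to 3.43 with pseudocounts of 10 and 0.1. It was 4.89 among libraries with Y-linked reads and 1.84 among those without. The log2 ratio of Runx1 to Cbfb was 2.36 ± 0.46 and 3.99 ± 0.41, a difference of 1.62, or 2.25 with and 1.00 without Y-linked reads. In both ratios the groups did not overlap, and the exact permutation p was 0.0286 each, also after adjustment over the 2 ratios. Each difference is the Runx1 change of 2.12 less that of Runx2 (-1.25) or Cbfb (0.49), neither of which was called. The ratios are thus not further tests of the Runx1 change.

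**Figure D2:**
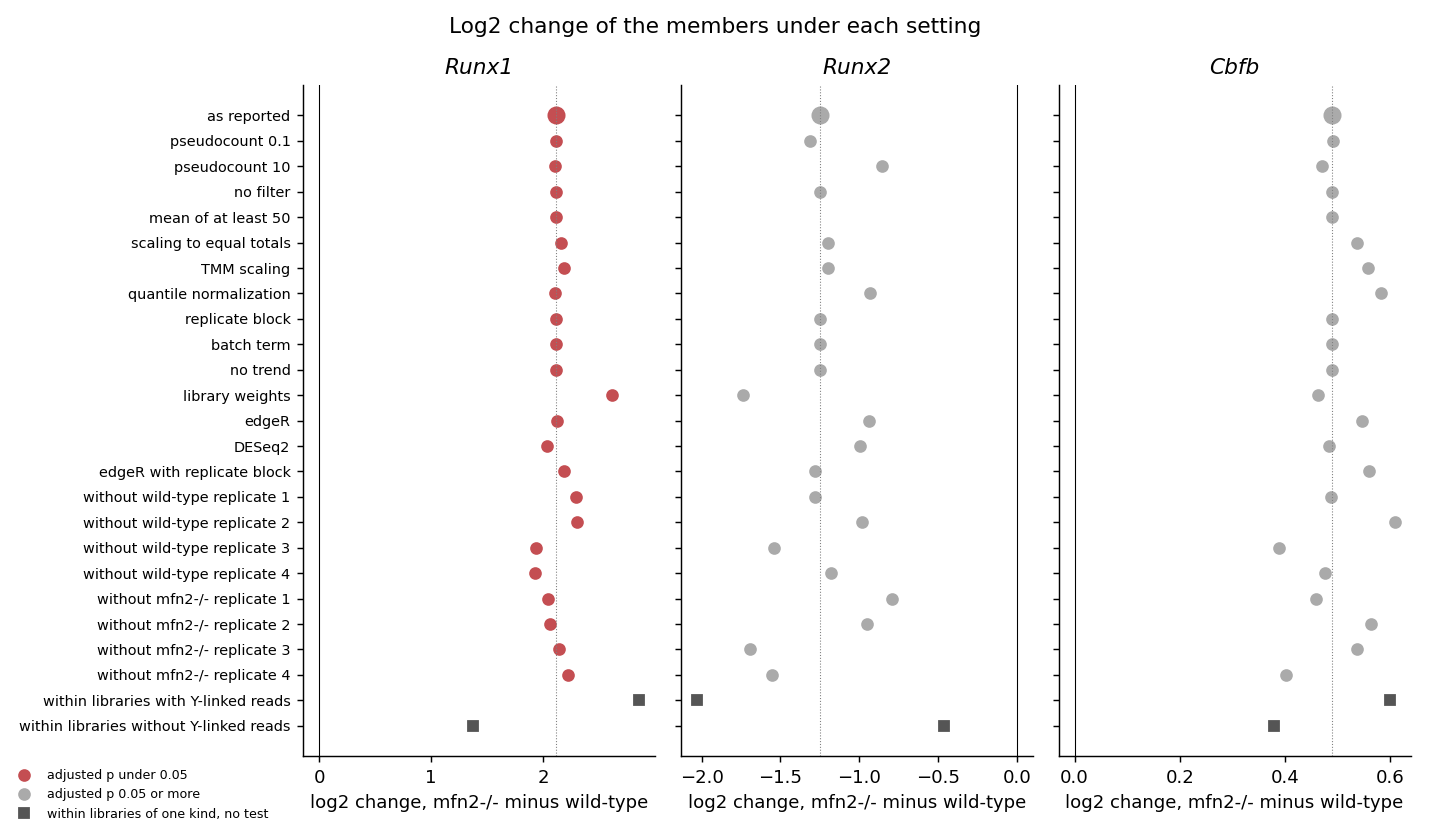
Log2 change of Runx1, Runx2 and Cbfb (x axes, mfn2-/- minus wild-type) under each setting of the processing (y axis). Red points passed an adjusted p of 0.05, grey points did not, and squares are values within libraries of 1 kind with no test. Runx1 stays between 1.93 and 2.61 and called under every tested setting, and Runx2 and Cbfb keep their sign and are called under none. The squares of Runx1 lie outside its range, at 2.86 with and 1.37 without Y-linked reads.

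The cell types in the sort were examined through marker lists, and the plot of markers by library sets them beside Runx1 and Runx2. The 10 muscle stem cell markers were all expressed, and their summed level was 9345 to 12238 normalized reads in wild-type and 17212 to 20748 in mfn2-/- libraries. Des, Myod1 and Vcam1 were called higher, 3 of 10 against 3.99% of all genes, and the list median was 0.18. The other 7 were not called, among them Itga7 (-0.87), Calcr (-0.61) and Chodl (-0.19) with negative values. Des and Vcam1 were then left out, after they were seen to carry the difference. Without them the sums overlapped, at 6600 to 7555 and 6067 to 8929 (exact permutation p = 0.571). That choice works toward overlap, so this p does not test whether the groups were alike. Pax7, the defining factor of these cells, was 630 to 730 in wild-type and 582 to 803 in mfn2-/- libraries. Taken per Pax7 read, Runx1 was 1.01 to 2.15 in wild-type and 4.31 to 6.71 in mfn2-/- libraries, a log2 difference of 2.01 (exact permutation p = 0.0286, chosen after the data had been seen). This value follows from the Runx1 change and the small change of Pax7 (log2 0.10, limma adjusted p 0.780), so it is not a second test. Which cells held the Runx1 reads was not tested. In bulk libraries fewer cells of a type and less RNA per cell cannot be told apart.

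Most markers of connective tissue cells were lower in mfn2-/- libraries. The 12 fibroadipogenic markers summed to 195997 to 254296 normalized reads in wild-type and 6003 to 10145 in mfn2-/- libraries, and 10 of 12 were called lower, against 6.36% of all genes. Cd34, whose protein was gated out in the sort, was among them, at 1415 to 1992 in wild-type and 359 to 700.0 in mfn2-/- libraries. The 9 tenocyte markers summed to 38669 to 60889 and 306 to 415, and 9 of 9 were called lower, beside the same 6.36%. Part of these genes were already known to be lower in these libraries when the lists were written. Wild-type replicates 3 and 4, which had the lower Runx1, had the higher sums of both lists. For the fibroadipogenic list this rested on Col1a1 and Col1a2. Without them the sums of the other 10 markers were 55338 and 55340 in replicates 3 and 4 and 63824 and 65690 in replicates 1 and 2, the same order as Runx1. That order in turn rested on Gsn, at 23336 and 21603 in replicates 1 and 2 and 13572 and 12228 in 3 and 4. Col3a1, the most abundant of the 10, went the other way, at 22369 and 24808 against 25868 and 27535. Of the 12 markers, 4 were higher and 4 lower in both replicates 3 and 4 than in 1 and 2, while 7 of 9 tenocyte markers were higher. The mfn2-/- replicates 3 and 4, in which Runx2 was inside the wild-type range, had fibroadipogenic sums of 6063 and 6003, below the 10145 and 9960 of replicates 1 and 2 in which Runx2 was low. The part of these cells in the Runx1 and Runx2 values was not tested.

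Blood cells express Runx1 and Runx3. The 14 haematopoietic markers found in the table summed to 42.5 to 116 normalized reads in wild-type and 101 to 367 in mfn2-/- libraries. The sums overlapped (exact permutation p = 0.0857), and 8 of the markers were too weak to test. Limma called 0 of the other 6, against 10.4% of all genes, with 0 at an unadjusted p under 0.05, and edgeR and DESeq2 called 0 as well. The median log2 change of these 6 was 1.29, against -0.16 over all genes tested, with 5 positive and 1 negative. Mutant replicates 3 and 4 had the highest sums, at 223 and 367, and replicate 3 was also the library with 18 of the 22 Runx3 reads. Replicate 4, with the highest sum, had 0 Runx3 reads, and replicate 2, with the lowest mutant sum (101), had 4. The part of blood cells in the Runx1 and Runx3 values was not tested.

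**Figure D3:**
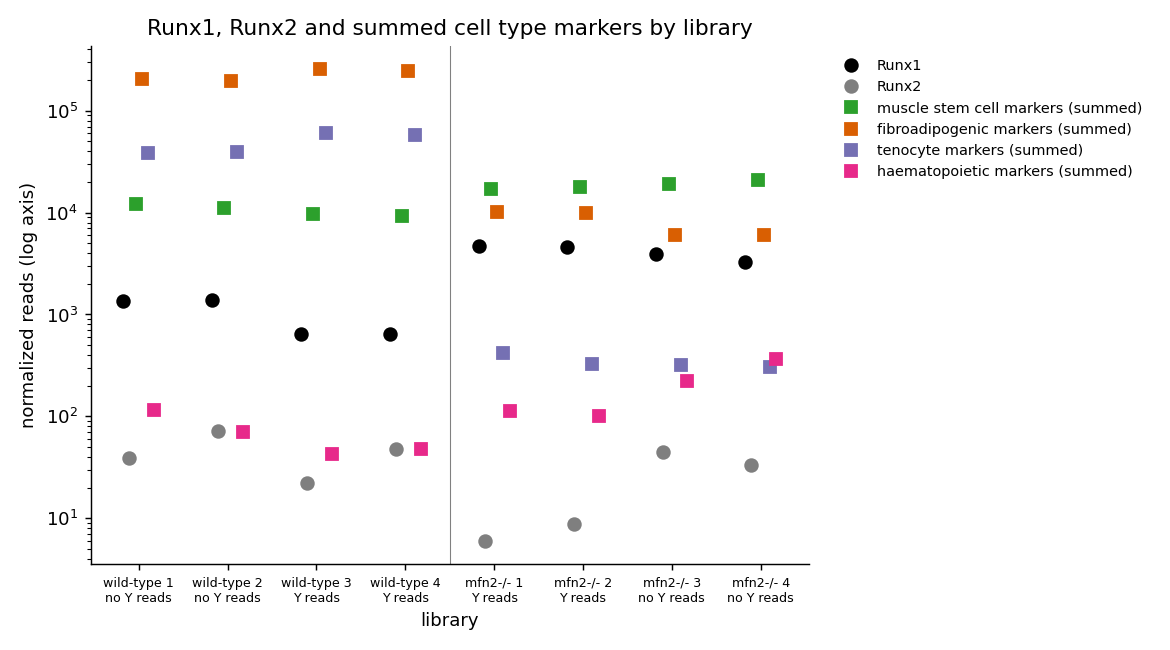
Normalized reads (log y axis) of Runx1 and Runx2 and of summed marker lists (squares) in the 8 libraries (x axis), with the wild-type libraries left of the line. Fibroadipogenic and tenocyte sums are lower in all 4 mfn2-/- libraries, while Runx1 is higher in all 4. The muscle stem cell sum is also higher in all 4, but overlaps between the groups without Des and Vcam1, left out because they carry the difference.

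Cofactors of the RUNX proteins were taken from 4 lists of 54 genes, of which 48 could be tested. Of these, 7 were called higher and 2 lower, 18.8% against 10.4% of all genes, with a median log2 change of 0.26 against -0.16 over all genes tested. The count fell to 5 without wild-type replicate 3 or 4 or without mfn2-/- replicate 2 or 3. In the same order, the count over all genes tested fell from 1217 to 671, 749, 841 and 871. Of the 9 calls 6 were DNA-binding partners, and the plot of cofactor changes gives every gene.

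The DNA-binding partners are factors that occupy sites next to RUNX or contact it. Of 18 tested, 6 were called higher and 0 lower, against 3.99% and 6.36% of all genes, with a median of 0.62. Limma gave 8 at an unadjusted p under 0.05, of which Fos alone was negative. More of all genes had such a p than the 1217 called, so the 3.99% and 6.36% do not apply to these 8. EdgeR called 7, with Smad5 added, against 1158 of all 11754 genes. DESeq2 called 8, with Smad5 higher and Fos lower, against 1738 of 11754. Ets2, an ETS factor, went from 875 ± 244 to 3155 ± 594 normalized reads (log2 change 1.87, limma adjusted p 0.000167), by 2.20 with and 1.55 without Y-linked reads. Cebpb, a leucine zipper factor of inflammatory and fat cell programs, went from 1139 ± 282 to 2465 ± 225 (1.14, adjusted p 0.00267), and Atf4, the effector of the integrated stress response, from 1351 ± 132 to 2874 ± 542 (1.07, adjusted p 0.00230).

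Fosl2, an AP-1 subunit, went from 2268 ± 1021 to 4962 ± 1506 (1.20, limma adjusted p 0.0300), with 2.16 in libraries with Y-linked reads and 0.24 in those without, a difference of 1.92 that passed the interaction test (limma adjusted p 0.00215). The most abundant partners, Jun and Fos, were not called, with log2 changes of -0.27 (adjusted p 0.521) and -0.81 (adjusted p 0.0813). Fos differed between the kinds of library, at -0.19 with and -1.42 without Y-linked reads (interaction adjusted p 0.00436). The other 2 called genes, Ets1 (1.09, adjusted p 0.0246) and Myod1 (2.32, adjusted p 0.000146), fell outside the naming rule and are named to complete the 6. Myod1 encodes the myogenic factor that cooperates with RUNX1 in myoblasts.

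Among the co-activators, 1 of 8 was called, higher, against 3.99% of all genes. Ep300, the histone acetyltransferase p300, went from 989 ± 89.1 to 1617 ± 337 normalized reads (log2 change 0.69, limma adjusted p 0.0348). The change was 0.84 with and 0.54 without Y-linked reads. Its paralog Crebbp went from 1804 ± 373 to 2559 ± 201 (0.52, adjusted p 0.0985) and Myst3, the acetyltransferase also called Kat6a, from 1238 ± 114 to 1597 ± 233 (0.36, adjusted p 0.223). Neither passed.

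The co-repressors include the Groucho/TLE proteins that bind the C-terminal end of RUNX factors. They gave 0 calls among 12 tested genes by limma, against 10.4% of all genes, and 0 by edgeR or DESeq2. Their median was 0.04, against -0.16 over all genes tested. The most abundant were Tle3 (1315 ± 462 and 1090 ± 128, log2 change -0.21, limma adjusted p 0.643) and Sin3a (620 ± 160 and 761 ± 95.2, 0.33, adjusted p 0.399). The 1 gene at an unadjusted p under 0.05 was Runx1t1, the ETO co-repressor known as a fusion partner of RUNX1 in leukemia, which was singled out after its values were seen. Its values were 75.0, 138, 85.7 and 144 normalized reads in wild-type replicates 1 to 4 and 70.7, 30.0, 14.0 and 0 in mfn2-/- replicates. The groups did not overlap, but the change of -2.99 did not pass (SE 1.13, limma adjusted p 0.117).

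Of 10 genes that inhibit RUNX proteins or control their turnover, 2 were called lower and 0 higher, with a median of -0.11, against 6.36% of all genes called lower. Both were Twist genes, mesenchymal factors that block the DNA binding of RUNX2. Twist1 went from 116 ± 33.2 to 5.75 ± 7.87 normalized reads (log2 change -5.07, limma adjusted p 0.0124). Its mfn2-/- values were 16.7 and 6.32 in replicates 1 and 2 and 0 in replicates 3 and 4, so the size of the change depends on the pseudocount. Twist2 averaged 26.3 ± 16.6 in wild-type cells and had 0 reads in all 4 mfn2-/- libraries, at least 8.71-fold lower against a floor of 3 reads per library (adjusted p 0.0202). Twist1 and Twist2 are also expressed by the connective tissue cells, most of whose markers were lower in the same libraries. The most abundant genes not called were Zfp521 (558 ± 154 and 295 ± 90.2, -0.92, adjusted p 0.0567), a zinc finger antagonist of RUNX2, and Smurf2 (225 ± 59.6 and 214 ± 40.4, -0.05, adjusted p 0.942), a ubiquitin ligase. EdgeR called the same 2 genes of this list, and DESeq2 called Zfp521 besides.

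**Figure D4:**
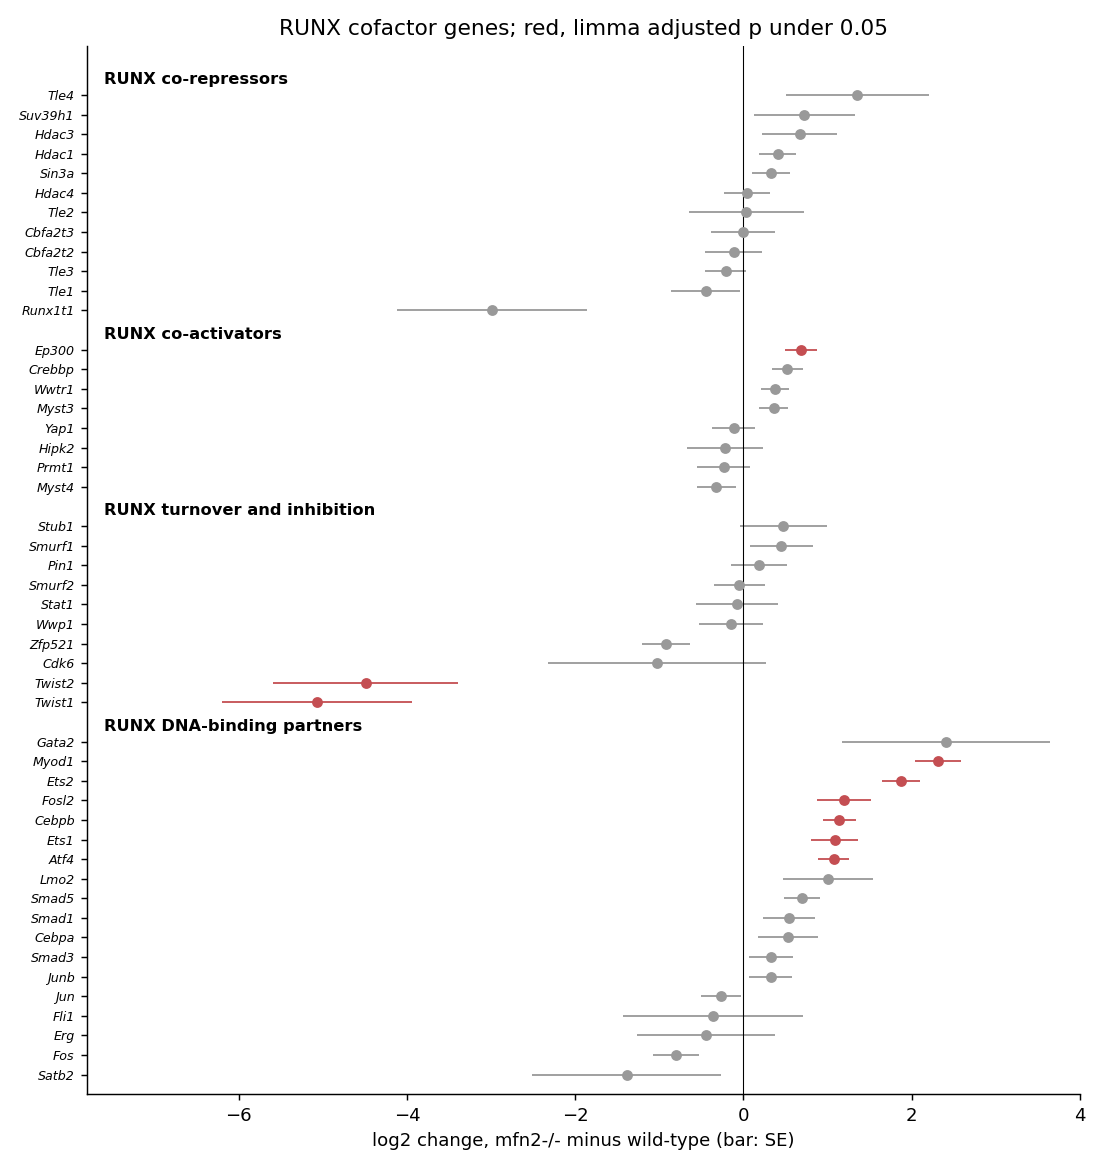
Log2 change with SE (x axis) of 48 RUNX cofactor genes (y axis), grouped by list and ordered by value. Red marks a limma adjusted p under 0.05. The 6 red points among the DNA-binding partners are positive, those of Twist1 and Twist2 are negative, and the co-repressors have none.

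Genes known as RUNX targets in other tissues were mostly too weak to test. Of 16 skeletal RUNX2 targets, 14 had a row and 8 could be tested, and 3 were called lower, against 6.36% of all genes. The list median was -2.15, also with Col10a1 at its bound, against -0.16 over all genes. These were Col1a1 (106037 ± 21896 to 334 ± 124 normalized reads, log2 change -8.36, limma adjusted p 3.64e-10), Col1a2 (58895 ± 11921 to 281 ± 123, -7.79, adjusted p 1.11e-09) and Col10a1. Col10a1, the collagen of hypertrophic cartilage, averaged 133 ± 81.8 in wild-type cells and had 0 reads in mfn2-/- cells, at least 44.0-fold lower (adjusted p 0.00103). Col1a1 and Col1a2 are on the fibroadipogenic list too. Vegfa (441 ± 146 and 536 ± 172, 0.27, adjusted p 0.605) and Alpl (243 ± 134 and 334 ± 95.8, 0.58, adjusted p 0.370), the bone alkaline phosphatase, were not called. Sp7, the osteoblast factor that acts after RUNX2, had at most 11 reads in any library. EdgeR called the same 3 genes, and DESeq2 also called Ibsp, a bone matrix protein gene.

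Of 17 blood targets of RUNX1 and RUNX3, 12 had a row and 3 could be tested. Limma called 0, against 10.4% of all genes, and 0 had an unadjusted p under 0.05. EdgeR and DESeq2 called 0 as well. The median of the 3 genes was 0.69, against -0.16 over all genes tested. Cebpa (117 ± 32.9 and 168 ± 44.6 normalized reads, 0.53, limma adjusted p 0.395) and Zbtb7b (67.2 ± 25.5 and 106 ± 22.1, 0.69, adjusted p 0.394) were the most abundant. Other blood targets, such as Mpo and Elane of myeloid cells, had at most 11 and 4 reads in any library.

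The genes whose values over the 8 libraries were most like those of Runx1 were Slc39a14 and Akap2. Likeness was the mean absolute difference of log2 values after centring each gene on its own mean. It was 0.098 for Slc39a14, a zinc and iron importer, and 0.162 for Akap2, an anchoring protein of protein kinase A, against a median of 1.38 over all genes tested. The normalized reads of Slc39a14 averaged 1729 ± 797 in wild-type cells and 6980 ± 428 in the mfn2-/- group, given as a description, since the choice of the gene fixed this pattern. For Cbfb the nearest were D17Wsu92e (0.076), the RNA helicase gene Ddx17 (0.078) and the channel kinase gene Trpm7 (0.083), against a median of 0.805. For the weak Runx2 they were more distant, with the complement gene C3 at 0.403, Zbed3 at 0.414 and Fam38b at 0.439, against a median of 1.22.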

How the data were processed

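The authors sequenced total RNA of sorted ASCs from 4 wild-type and 4 mfn2-/- samples with a stranded low-input kit. The submitters' processing notes name Trim Galore, HISAT2, featureCounts, DESeq2 and the build mm9. Versions, the annotation and whether counting used strand are not given in the sources used here. The authors deposited a signal for every gene, namely reads divided by 1 size factor per library. In each library 100% of values were whole multiples of 1 step (within 0.1 read), worth 0.534 to 2.27 normalized reads, and whole reads were recovered by dividing by it.

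The 4 genes and all lists were chosen with earlier results of these data known. Limma 3.58.1 (R 4.3.3) was fitted on log2(normalized reads + 1) with an intensity trend, two-sided, with Benjamini-Hochberg adjustment over all 11754 genes with a mean of at least 10. Single values were compared by exact permutation over 70 arrangements (scipy 1.17.1, Python 3.11.15). Runx3, under the filter, has the permutation test only. Alternatives included edgeR 4.0.16 and DESeq2 1.42.0 on the recovered reads. They also covered the pseudocount, filter, scaling, trend, library weights, replicate block, a term for Y-linked reads and each library left out. Limma and edgeR were also run on simulated reads in which 200 of 11234 genes changed by a log2 of 2. Each recovered 36.5% of the changed genes, and 7.59% of limma calls and 8.75% of edgeR calls were false. A gene that was not called may therefore still have changed. The share of genes changed in the simulation was smaller than the share called in the data (1217 of 11754), so the 36.5% need not hold there. Runx1 relative to Pax7, the marker sums with members left out and the alternatives of the interaction were later additions, chosen after seeing the data.

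Named genes were, per list, up to 4 called and the 2 most abundant not called. For likeness, the 3 nearest genes were taken, of which 1 is not reported here. List symbols were matched directly or through RefSeq synonyms. Positions and lengths are from GENCODE M21 (GRCm38) and promoters from RefSeq (GRCm38.p6), since the table has no coordinates and mm9 was not used here. On the opposite strand, exons of Runx1 overlap Gm26626 and those of Runx2 overlap Runx2os1 and Supt3, none of which is in the table, so their reads cannot be told apart if strand was ignored. Without molecular identifiers, amplified copies count as reads.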

Additional observations from a re-analysis of the deposited data

Results flagged for a closer look

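The log2 change of Runx1 was larger by 1.48 among libraries with Y-linked reads than among those without, and the difference itself passed the limma interaction test. The 2 wild-type libraries with Y-linked reads had the lower Runx1 of their group (649 and 643 normalized reads), and the 2 mfn2-/- libraries with Y-linked reads the higher (4744 and 4627). Sex of the animals and the replicate pair cannot be told apart here. In wild-type cells the Runx1 order was opposite to that of the fibroadipogenic sum, but the same as that of this sum without Col1a1 and Col1a2 (63824 and 65690 in replicates 1 and 2, 55338 and 55340 in 3 and 4). The latter order rested on a single fibroadipogenic marker, Gsn. The part of these cells was not tested. Among the named cofactors, Fosl2 and Fos also differed between the kinds of library, by 1.92 and 1.23 on the log2 scale.

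The most extreme library of each group was set against the other 3 with Dixon's test in 56 cases, of which 3 passed, about as many as chance gives (3). Runx3 was 0.534 normalized reads in wild-type replicate 4, a single read, against 0 in the others. Myst3 was 1408 in wild-type replicate 1 against 1170 to 1202. Zbtb7b was 105 in wild-type replicate 4 against 52.3 to 59.1.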

How the results depend on the processing

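Over 22 alternative fits the log2 change of Runx1 ran from 1.93 to 2.61 and its adjusted p from 1.67e-10 to 0.0198, so it was called in each. Runx2 kept a negative value, from -1.74 to -0.79, with adjusted p from 0.0627 to 0.684, and had none at a mean of at least 50, which it does not reach. Cbfb ran from 0.39 to 0.61, with adjusted p from 0.125 to 0.498. Within libraries with and without Y-linked reads Runx1 gave 2.86 and 1.37, the ratio of Runx1 to Runx2 gave 4.89 and 1.84, and that of Runx1 to Cbfb 2.25 and 1.00. Quantile normalization moved the median of all genes from -0.16 to 0.13, a shift of 0.29, and Cbfb from 0.49 to 0.58. EdgeR shifted that median by 0.11, the mean filter of 50 by 0.14 and leaving out mfn2-/- replicate 4 by 0.13.

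The 1217 genes called became 633 without the intensity trend, 3037 with library weights and 770 in edgeR with the replicate block, and 671 to 1331 with single libraries left out. The lowest came without wild-type replicate 3 (671) and 4 (749). The 9 cofactor calls became 4 without the trend, 18 with library weights and 5 to 9 with single libraries left out. The 3 target calls became 6 with library weights and stayed at 3 or 4 with single libraries left out. The cause was not tested.

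The difference in Runx1 change between the kinds of library was 1.48 without the trend (adjusted p 0.355) and 1.36 to 1.61 with single libraries left out. Over its alternatives, chosen after the data were seen, the adjusted p ran from 0.00210 to 0.355.

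Replicate numbers did not pair the samples. Deviations of same-numbered libraries correlated by -0.111 to 0.0383, and 0 of 4 wild-type libraries were closest to their own number. With the replicate block 1043 genes were called and Runx1 gave 2.12 (adjusted p 9.75e-05). For the ratios the paired differences of 3.36 and 1.62 had an exact p of 0.125, the smallest 4 pairs allow. With a library left out the ratio differences ran from 2.84 to 3.83 for Runx2 and 1.45 to 1.82 for Cbfb, each at an exact p of 0.0571, again the smallest possible. At these depths Runx2 rested on 9 to 90 reads and Runx3 on 0 to 18 reads per library.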

Other observations

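Among 9 osteoblast and chondrocyte markers with a row, 7 could be tested and 3 were called lower, against 6.36% of all genes. Besides Col10a1 these were Acan, the cartilage proteoglycan, with 0 reads in all mfn2-/- libraries and at least 102-fold lower than the wild-type mean of 307 normalized reads, and Col2a1, the main cartilage collagen (log2 change -7.13, limma adjusted p 2.16e-07). Sox9, the chondrocyte factor that precedes RUNX2, was the 1 called higher, against 3.99% of all genes. Its means were 475 ± 149 and 962 ± 320 normalized reads (log2 1.00, limma adjusted p 0.0484). The groups overlapped for Sox9, and its value was 1.80 with and 0.20 without Y-linked reads (limma interaction adjusted p 0.0652).

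Endothelial markers summed to 537 to 1004 normalized reads in wild-type and 730 to 1251 in mfn2-/- libraries. Limma called 0 of 6, against 10.4% of all genes, with 0 at an unadjusted p under 0.05. EdgeR and DESeq2 called 0 of 6 as well. Myofiber markers summed to 1053 to 2377 and 2164 to 3251, with overlap. Of 7, 1 was called higher, Myh4 (2.76, limma adjusted p 0.0119), against 3.99% of all genes.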
